A study of Sus scrofa with 10 samples.

Results

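A set of 10 genes of lipid uptake and storage, named LPL, CD36, FABP3, SLC27A1, GPAM, DGAT1, DGAT2, PNPLA2, PLIN2 and PLIN5, were followed by gene name in nuclear RNA of sorted minipig (Sus scrofa) cardiomyocytes. Of these 10 members, 9 had an identifier of that name among the 35670 identifiers of the files, and 8 were above 0 in at least 1 library. CD36 had no identifier of its name. An unnamed identifier covered 98.0% of the RefSeq interval of CD36 on the same assembly, and its values are given beside the members as those of the CD36-interval locus, without counting it as a member.

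The title of the series calls JK07 an agonist of ERBB4, a neuregulin receptor, and the series is about atria and atrial fibrillation. DOCA (deoxycorticosterone acetate) is a mineralocorticoid given to animals to raise blood pressure. The DOCA + JK07 group had 3 libraries (8 to 10), the DOCA group had 2 (6 and 7) and the control group, which received PBS, had 5 (1 to 5). All 10 libraries carried the genotype label WT and came from heart, and nothing in the sources used here gave the chamber, strain, age, dose, duration or way of sorting. Separate animals per library are not stated in the labels, so the p-values measure only how these libraries vary, which may be technical.

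Lipoprotein lipase (LPL) is made by cardiomyocytes and works at the capillary wall, where it releases fatty acids from the triglyceride of circulating lipoproteins. Fatty acids enter the cell with the help of CD36 and SLC27A1 and are carried in the cytosol by FABP3. GPAM and the DGAT enzymes build them into triglyceride, which is kept in lipid droplets coated by PLIN2 and PLIN5, and PNPLA2 starts its breakdown. The heart draws much of its energy from fatty acids, and its droplets are a short-lived store next to mitochondria.

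The DOCA libraries stood apart from the rest. Outside ribosomal RNA scaffolds and the mitochondrial genome, DOCA + JK07 libraries held 9.03 to 12.9 M estimated counts (M, mega), DOCA libraries 6 and 7 held 6.87 and 3.30 M, and control libraries held 8.67 to 13.9 M. Of 13430 nuclear genes detected in at least 8 libraries, 0.223% to 1.57% were listed at 0 in DOCA + JK07 libraries, 19.2% and 23.8% in the DOCA libraries and 0.0968% to 1.41% in controls. Of the 17251 genes tested, 4791 (27.8%) were listed at 0 in both DOCA libraries. The scaling factor (TMM) of DOCA library 6 was 0.511, against 0.871 to 1.35 in the other 9 libraries. All comparisons with DOCA below rest on these 2 libraries, and the part that depth had in them was not tested.

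Between DOCA and control, edgeR's quasi-likelihood test with Benjamini-Hochberg adjustment over all genes called 3 of the 8 members tested lower (LPL, GPAM and PLIN5) and 1 higher (PNPLA2). The call of PLIN5 was lost with any 1 of 9 libraries left out, and its direction cannot be read, since its control mean lay under a coverage of 1 in DOCA. Across all genes tested, 19.7% were called lower and 5.73% higher in this comparison, 25.5% in all. Between DOCA + JK07 and DOCA, LPL, GPAM and PLIN5 were called higher and PNPLA2 lower, while 14.7% of all genes were called higher and 2.25% lower, 17% in all. These comparisons share the DOCA libraries, so the second is not independent of the first. Between DOCA + JK07 and control, edgeR called 0 of the 8 members and 0% of all genes (0 of 17251); 2 members and 803 genes had an unadjusted p under 0.05. DESeq2 called 0 members there, with 51 genes higher and 64 lower.

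The median log2 fold change of the 8 members was -0.60 in DOCA against control, beside -0.63 for all genes tested, and 0.98 in DOCA + JK07 against DOCA, beside 0.55. For DOCA + JK07 against control it was 0.48, beside 0.00. Genes listed at 0 in both DOCA libraries weigh on these medians. Such genes were placed at a coverage of 1, above which 96.0% of detected values in the 10 libraries together lay. This share was not counted for the DOCA libraries alone. The placement gives a likely ceiling for DOCA rather than a corrected value. It puts DOCA above control by construction where the control level is lower still, as for PLIN5. With that placement the medians were 0.37 for the members and 0.08 for all genes in DOCA against control. For DOCA + JK07 against DOCA they were 0.70 and 0.00. The share of called genes that were higher in DOCA than in control was 22.5%, and 34.7% with upper quartile scaling; for DOCA + JK07 against DOCA the shares were 86.8% and 73.6%, so LPL is also given relative to the median of all genes below.

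**Figure D1:**
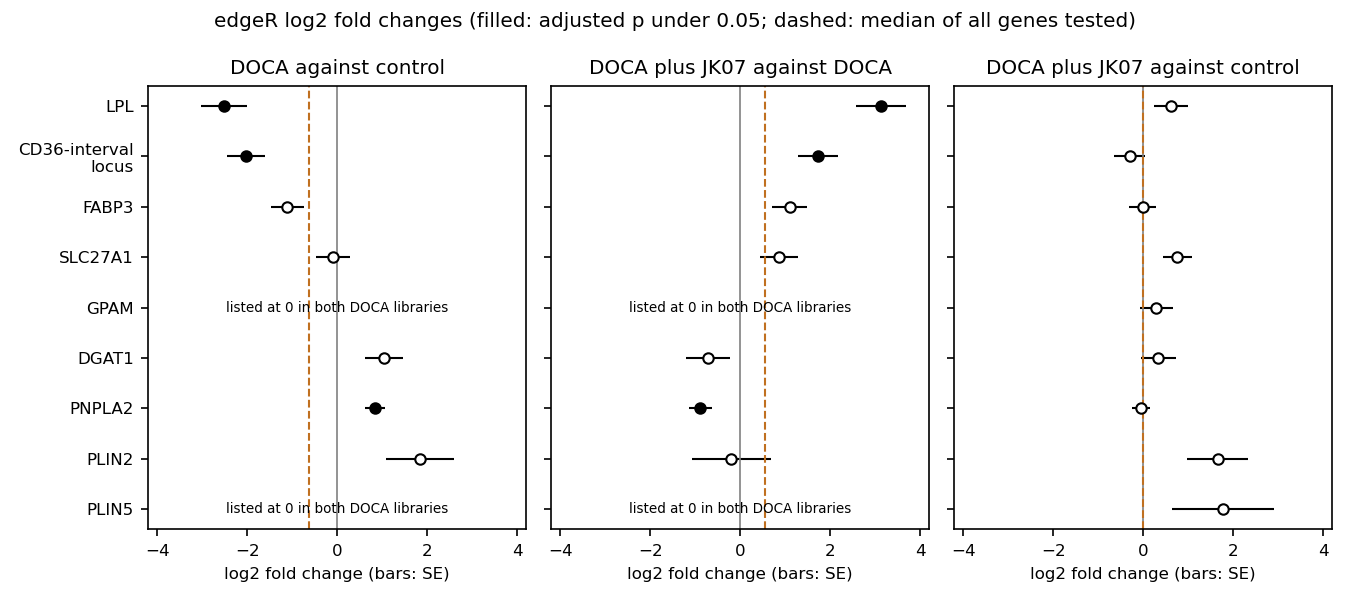
Log2 fold changes of the members and of the CD36-interval locus in edgeR, with approximate standard errors as bars, for DOCA against control (left), DOCA + JK07 against DOCA (middle) and DOCA + JK07 against control (right); filled points passed an adjusted p of 0.05 and the dashed line is the median of all genes tested. LPL lies at -2.52 on the left and 3.14 in the middle, no point is filled on the right, and GPAM and PLIN5 carry no point where DOCA was listed at 0.

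By level per transcript length (TPM, the deposited length-scaled abundance), the members of control libraries ran in the order FABP3, LPL, PNPLA2, SLC27A1, GPAM, PLIN2, DGAT1 and PLIN5. FABP3 averaged 9.65 ± 1.98 TPM, LPL 8.07 ± 2.62, PNPLA2 4.74 ± 0.513 and SLC27A1 4.67 ± 1.87 (SD, n = 5). GPAM averaged 1.86 ± 0.310 TPM, PLIN2 1.40 ± 0.841, DGAT1 1.04 ± 0.266 and PLIN5 0.357 ± 0.241. Within that order FABP3 and LPL overlapped, and SLC27A1 (up to 7.06 TPM) overlapped with both PNPLA2 and LPL (from 5.67 TPM). PLIN2 overlapped with GPAM and DGAT1, while PLIN5 lay below DGAT1 in every control library. DGAT2 (chromosome 9, 10032128-10068437, plus strand) was listed at 0 in all 10 libraries, which does not show that it was absent. Of DGAT1 and DGAT2, enzymes of the final step of triglyceride synthesis, only DGAT1 had values above 0. The DGAT1 values are uncertain because of an overlapping gene, as given below.

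The order differed between groups. In DOCA + JK07, LPL had the highest mean of the members at 14.3 ± 6.44 TPM (n = 3), followed by FABP3 at 11.6 ± 6.12 and SLC27A1 at 9.34 ± 2.37, whose libraries overlapped with one another. In DOCA, LPL had the lowest mean of the 6 detected members at 0.868 ± 0.242 TPM (n = 2), and PNPLA2 had the highest at 5.64 ± 0.156. Among detected nuclear genes ranked by TPM, LPL stood at the 97.9, 96.0 and 92.5 percentile in DOCA + JK07 libraries 8, 9 and 10, at the 51.1 and 6.15 percentile in DOCA libraries 6 and 7, and at the 88.1 to 96.1 percentile in controls.

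**Figure D2:**
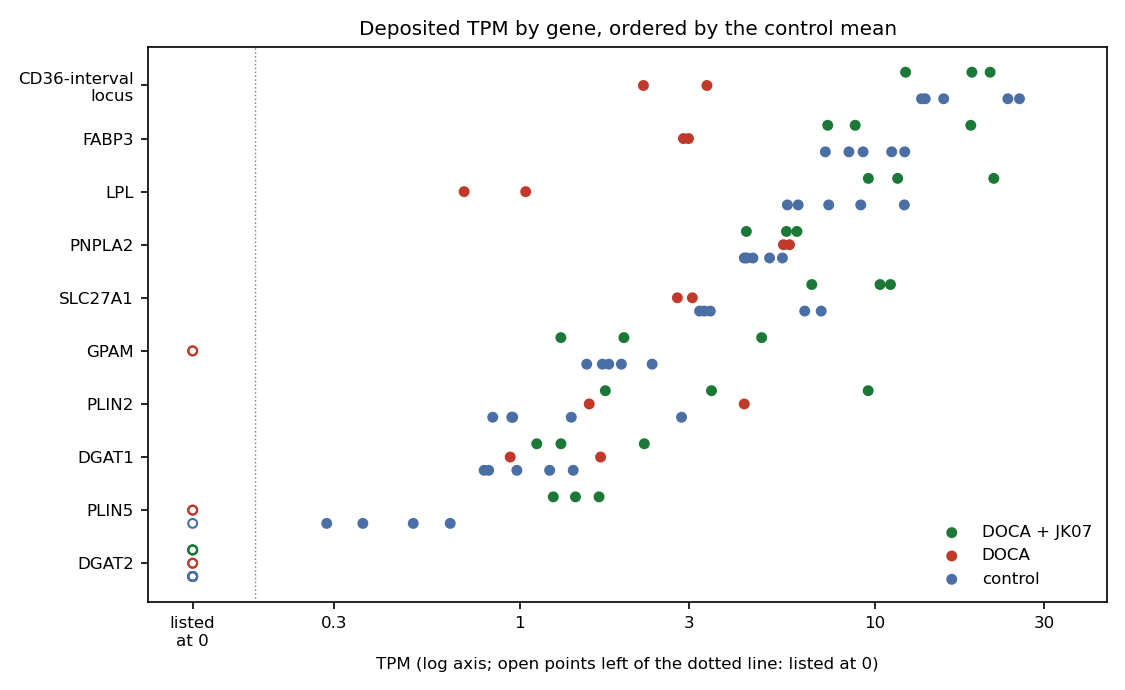
Deposited TPM of each member and of the CD36-interval locus in every library on a log axis, ordered by the control mean, with open points left of the dotted line for values listed at 0; rows hold DOCA + JK07, DOCA and control from top to bottom. Both DOCA points of LPL, at 1.04 and 0.697 TPM, lie left of all others of that gene, while those of PNPLA2, at 5.53 and 5.75 TPM, lie within the range of the DOCA + JK07 libraries.

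LPL (ENSSSCG00000040631, chromosome 14, 4104772-4135814, plus strand, Sscrofa11.1) had 37.7, 22.6 and 16.3 CPM (counts relative to the library total after TMM scaling) in DOCA + JK07 libraries 8, 9 and 10, 4.198 and 1.57 CPM in DOCA libraries 6 and 7, and 18.2, 23.8, 13.6, 15.9 and 11.4 CPM in control libraries 1 to 5. Both DOCA libraries were below every other library, and the DOCA + JK07 and control libraries overlapped. The means were 25.5 ± 10.98, 2.89 ± 1.86 and 16.6 ± 4.74 CPM (SD) for DOCA + JK07, DOCA and control.

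In DOCA against control LPL fell, with a log2 fold change of -2.52 (SE 0.51, adjusted p 0.00643 in edgeR), 1 of the 19.7% of genes called lower. Relative to the median of all genes the difference was -1.88, and -1.91 with upper quartile scaling. It was called with each of the 10 libraries left out in turn, between -3.40 without library 6 and -1.99 without library 7, and not with voom quality weights, which let the spread differ by library (-2.46, adjusted p 0.120). It rose by 3.14 in DOCA + JK07 against DOCA (SE 0.55, adjusted p 0.00307 in edgeR), between 2.61 and 4.02 with a library left out, and with an adjusted p of 0.137 under voom quality weights. Against control, DOCA + JK07 differed by 0.62 (SE 0.38, adjusted p 1 in edgeR), and by 0.23 without library 8.

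The depth behind LPL in DOCA was low. Its coverage, in reads per base, was 17.6, 10.7 and 5.72 in DOCA + JK07 libraries 8 to 10, 1.11 and 0.294 in DOCA libraries 6 and 7, and 4.49 to 11.97 in controls. Library 7 was thus among the 3.96% of detected values with a coverage under 1. A coverage of 1 in LPL stood for 171 counts in the median library, and libraries 6 and 7 held 164 and 47. With both raised to 171 counts, the log2 differences of the group means were -1.71 for DOCA against control and 2.34 for DOCA + JK07 against DOCA. In such bulk libraries, fewer cells of a type and less RNA per cell cannot be told apart.

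**Figure D3:**
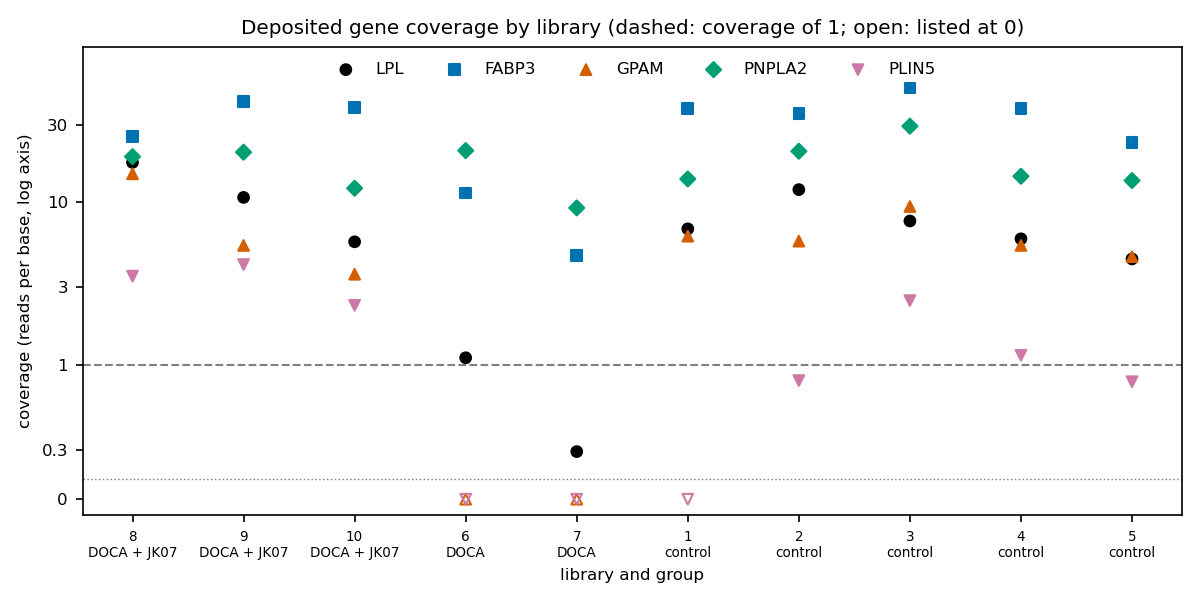
Deposited coverage (reads per base, log axis) of LPL, FABP3, GPAM, PNPLA2 and PLIN5 in each library, with DOCA + JK07 left, DOCA in the middle and control right; the dashed line marks a coverage of 1 and open points mark values listed at 0. In the DOCA libraries LPL lies at 1.11 and 0.294 and GPAM and PLIN5 are listed at 0, while PNPLA2 lies at 20.8 and 9.24.

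Partners of LPL were set beside it, 13 genes for chaperones, regulators, lipoprotein receptors and anchors, of which 10 were tested. Of these, 0 rose and 2 fell in DOCA against control, where 5.73% of all genes were called higher and 19.7% lower. The list median was 0.18 beside -0.63 for all genes. In DOCA + JK07 against DOCA 2 rose and 0 fell, where 14.7% of all genes were called higher and 2.25% lower. The median there was -0.17 beside 0.55. With genes at 0 in both DOCA libraries placed at a coverage of 1, the list had 0.19 beside 0.08 for all genes, and -0.34 beside 0.00. With TPM in place of CPM (log2(TPM + 0.1)) the list medians were -0.36 and 0.58, beside -0.98 and 1.19 for all genes. The genes called were the same in both comparisons: SEL1L, a quality control protein of the endoplasmic reticulum that LPL needs in mice to leave that compartment, and VLDLR, a receptor for triglyceride-rich lipoproteins.

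SEL1L had 12.1, 13.6 and 13.7 CPM in DOCA + JK07, 3.17 and 4.92 CPM in DOCA, and 7.91 to 13.01 CPM with a median library of 9.98 in control, so both DOCA libraries lay below all others. It fell by 1.36 on the log2 scale in DOCA against control (SE 0.28, adjusted p 0.00724 in edgeR) and rose by 1.70 in DOCA + JK07 against DOCA (SE 0.30, adjusted p 0.00345), and kept both calls with any 1 library left out, though not with voom quality weights. VLDLR differed by -0.68 (SE 0.21, adjusted p 0.0396 in edgeR) and 0.89 (SE 0.22, adjusted p 0.0223) in these comparisons. Its first call was lost without any 1 of libraries 1 to 5, 7, 8 and 10, and its second without library 7, 8 or 10.

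The most abundant partners in controls were HSPG2, the basement membrane proteoglycan perlecan, and VLDLR. HSPG2 averaged 34.4 ± 5.39, 26.3 ± 21.3 and 28.7 ± 7.76 TPM (SD) in DOCA + JK07, DOCA and control, and VLDLR 10.3 ± 3.97, 3.17 ± 0.724 and 7.37 ± 0.786 TPM.

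Of the uptake genes, the CD36-interval locus (ENSSSCG00000061957, chromosome 9, 99687536-99782169, minus strand) had 36.2, 28.3 and 25.98 CPM in DOCA + JK07, 13.3 and 4.92 CPM in DOCA, and 50.05, 45.6, 29.7, 33.0 and 27.4 CPM in control libraries 1 to 5. As for LPL, both DOCA libraries were below all others. The locus fell by 2.02 on the log2 scale in DOCA against control (SE 0.43, adjusted p 0.00802 in edgeR), between -2.92 and -1.48 with a library left out, all called. It rose by 1.72 in DOCA + JK07 against DOCA (SE 0.44, adjusted p 0.0266 in edgeR), a call lost without library 7 (1.18, adjusted p 0.0730), 8 or 9. Across the 10 other settings of processing, the first call held in 9 and the second in 8. Its coverage was 2.45 and 0.550 in DOCA libraries 6 and 7, and with library 7 raised to the count of a coverage of 1 the differences were -1.67 for DOCA against control and 1.36 for DOCA + JK07 against DOCA. The identifier holds a U2 small nuclear RNA gene within its span, and the files give it no name.

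FABP3 (ENSSSCG00000036883, chromosome 6, 87942790-87951610, minus strand), the fatty acid-binding protein of heart muscle, had 4.78, 7.70 and 9.76 CPM in DOCA + JK07, 4.48 and 2.41 CPM in DOCA, and 8.99, 6.16, 7.69, 8.92 and 5.44 CPM in control. Both DOCA values were below all others, with DOCA library 6 close under DOCA + JK07 library 8. The differences missed the threshold: -1.11 for DOCA against control (SE 0.37, adjusted p 0.0571 in edgeR) and 1.10 for DOCA + JK07 against DOCA (SE 0.39, adjusted p 0.0885). Without library 6 both passed (-1.63 with adjusted p 0.0331, and 1.62 with adjusted p 0.0415), and without library 7 the first was -0.74. By TPM (limma on log2(TPM + 1)) they passed as well, at -1.41 and 1.57 with adjusted p 0.00704 and 0.00717.

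SLC27A1 (ENSSSCG00000013879, chromosome 2, 60203388-60235588, minus strand), a fatty acid transport protein of muscle and fat, had 24.2, 21.0 and 20.9 CPM in DOCA + JK07, 15.03 and 9.20 CPM in DOCA, and 8.57, 18.6, 19.0, 9.91 and 8.93 CPM in control. All 3 DOCA + JK07 libraries were above every DOCA and control library in CPM, and the DOCA libraries lay within the control range. In TPM, DOCA + JK07 library 9 (6.64) lay below control library 2 (7.06), and both DOCA libraries (2.78 and 3.06) lay below the lowest control (3.21). The log2 difference was 0.86 in DOCA + JK07 against DOCA (SE 0.42, adjusted p 0.206 in edgeR) and 0.76 in DOCA + JK07 against control (SE 0.32, unadjusted p 0.0420, adjusted p 1). For DOCA against control it was -0.10 (SE 0.38, adjusted p 0.871 in edgeR), and 0.13 with upper quartile scaling. On log2(TPM + 1) in limma it was 1.37 for DOCA + JK07 against DOCA (adjusted p 0.0106) and -0.47 for DOCA against control (adjusted p 0.292).

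**Figure D4:**
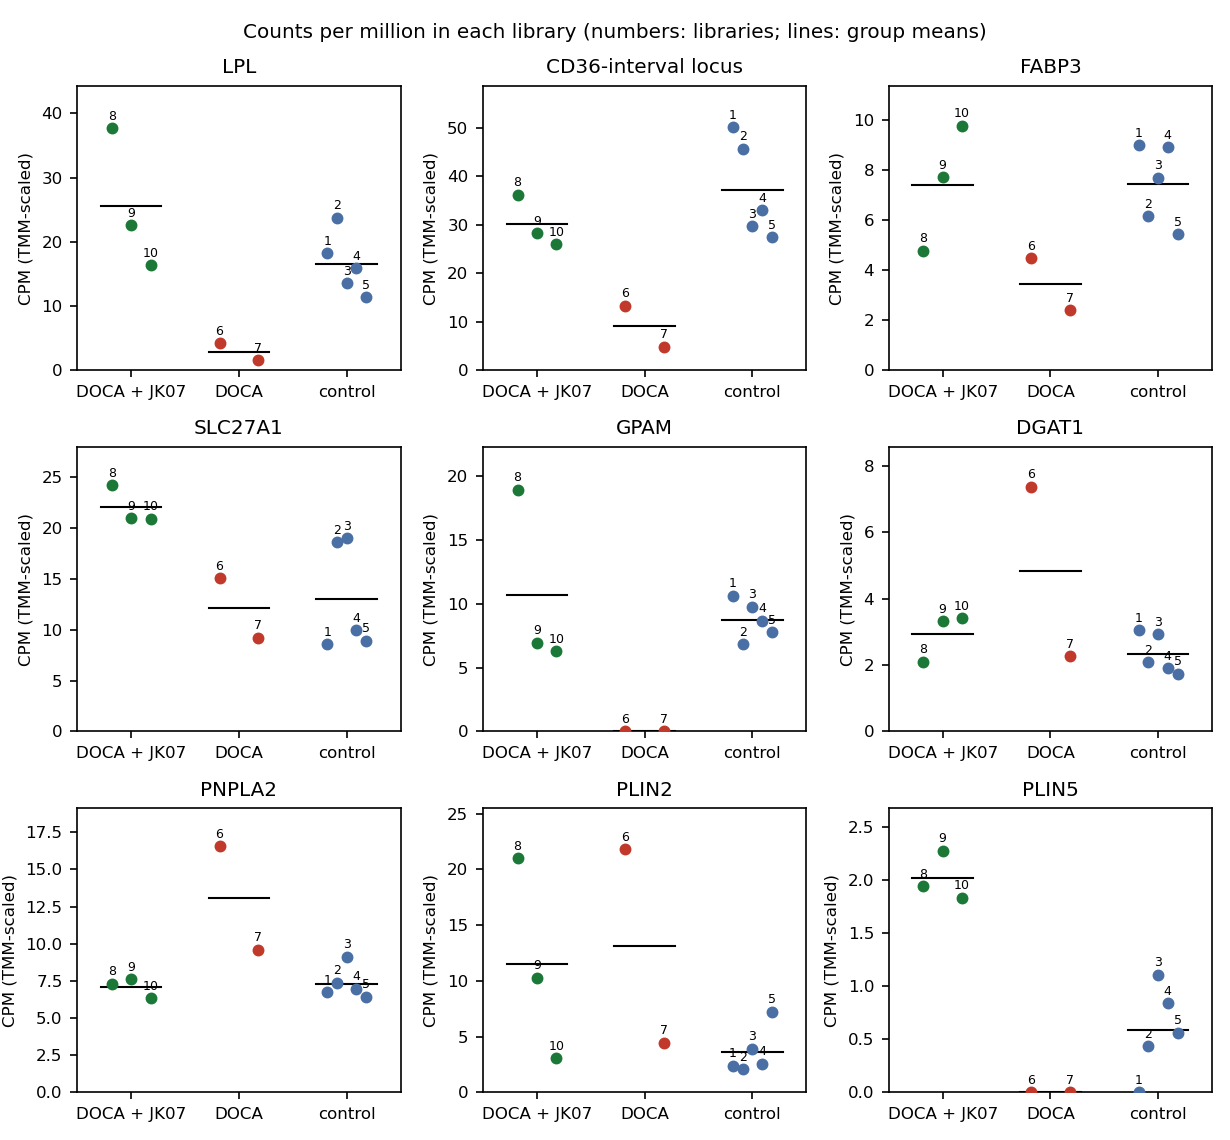
CPM after TMM scaling in each library (points, numbered by library) with group means (lines) for 8 members and the CD36-interval locus, DOCA + JK07 left, DOCA in the middle and control right. In LPL, the CD36-interval locus, FABP3 and GPAM both DOCA points lie below all others, and in DGAT1, PNPLA2 and PLIN2 DOCA library 6 is the highest point.

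Among 14 further genes of fatty acid uptake and activation, 12 were tested. Of these, 0 rose and 3 fell in DOCA against control, where 19.7% of all genes were called lower. The list median was -0.99 beside -0.63 for all genes, and -0.72 beside -0.39 with upper quartile scaling. With genes at 0 in both DOCA libraries placed at a coverage of 1, it was -0.80 beside 0.08. In DOCA + JK07 against DOCA 1 rose and 0 fell, where 14.7% of all genes were called higher. The median there was 0.68 beside 0.55 for all genes, or 0.58 beside -0.002 with that placement. CAV2, a caveolin of membrane pits, fell by 1.25 on the log2 scale in DOCA against control (SE 0.32, adjusted p 0.0202 in edgeR), a call lost without library 7 (-0.82, adjusted p 0.0699). ACSL3, which activates long-chain fatty acids, fell by 0.97 (SE 0.29, adjusted p 0.0390), a call lost without any 1 of libraries 1, 2, 3, 4, 7 and 9. DBI, an acyl-CoA-binding protein, had 1.79 to 2.19 CPM in DOCA + JK07, was listed at 0 in both DOCA libraries and had 1.85 to 4.66 CPM in control, and was called in both comparisons (adjusted p 0.000147 for DOCA + JK07 against DOCA and 0.000106 for DOCA against control in edgeR). The CPM that a coverage of 1 stands for is not given for DBI. Whether a DOCA level like that of the other groups would be listed at 0 is thus not known, and the direction of DBI is not read.

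The most abundant genes of that list in controls were CAV1 and ACSL6, the first a caveolin and the second an acyl-CoA synthetase. CAV1 averaged 11.7 ± 4.88, 8.46 ± 1.28 and 13.7 ± 2.30 TPM in DOCA + JK07, DOCA and control. ACSL6 averaged 5.90 ± 5.09, 1.045 ± 0.306 and 6.41 ± 3.42 TPM, and its difference between DOCA and control missed the threshold (-1.93, adjusted p 0.112 in edgeR).

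GPAM (ENSSSCG00000010631, chromosome 14, 122538603-122579148, minus strand), the mitochondrial acyltransferase that opens glycerolipid synthesis, had 19.0, 6.97 and 6.27 CPM in DOCA + JK07, was listed at 0 in both DOCA libraries, and had 10.7, 6.86, 9.78, 8.68 and 7.80 CPM in control. Its adjusted p in edgeR was 9.35e-05 for DOCA + JK07 against DOCA and 9.17e-05 for DOCA against control. A coverage of 1 in GPAM corresponded to 104 counts, that is, 2.66 CPM in DOCA library 6 and 3.48 CPM in library 7, and the lowest value in any other library was 6.27 CPM. With DOCA placed at that coverage, the log2 differences were 1.81 for DOCA + JK07 against DOCA and -1.51 for DOCA against control. GPAM kept both calls with any 1 library left out, and in DOCA + JK07 against control its difference was 0.29 (SE 0.37, adjusted p 1), and -0.40 without library 8.

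DGAT1 (ENSSSCG00000005918, chromosome 4, 452662-466684, plus strand) had 2.11, 3.33 and 3.42 CPM in DOCA + JK07, 7.37 and 2.28 CPM in DOCA, and 3.05, 2.09, 2.94, 1.90 and 1.74 CPM in control. The DOCA libraries differed by more than any pair of the other groups, and library 7 lay within the control range. The log2 difference of DGAT1 between DOCA and control was 1.04 (SE 0.43, adjusted p 0.119 in edgeR), 1.65 (adjusted p 0.00802) with library 7 left out and -0.04 with library 6 left out. The difference of DOCA + JK07 against DOCA was -0.71 (SE 0.49, adjusted p 0.353), 0.38 without library 6 and -1.32 without library 7 (adjusted p 0.0417). DGAT1 overlaps HSF1 on the opposite strand, which averaged 3.26 TPM, and no source used here says whether reads were counted by strand, so the DGAT1 values are uncertain.

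Of 16 further genes of glycerolipid and fatty acid synthesis, 15 were tested. Between DOCA and control 3 rose (LPIN1, FASN and GPAT4) and 1 fell (SCD), where 5.73% of all genes were called higher and 19.7% lower. The list median was 0.01 beside -0.63 for all genes, or 0.32 beside 0.08 with genes at 0 in both DOCA libraries placed at a coverage of 1. SCD was among the genes listed at 0 in both DOCA libraries, so its direction is not read. FASN, the fatty acid synthase, had 12.2, 21.1 and 26.8 CPM in DOCA + JK07, 50.4 and 67.0 CPM in DOCA, and 16.03 to 26.3 CPM in control. It rose by 1.49 in DOCA against control (SE 0.31, adjusted p 0.00706 in edgeR), a call kept with any 1 library left out, and fell by 1.55 in DOCA + JK07 against DOCA (SE 0.35, adjusted p 0.0138), a call lost without library 7 (adjusted p 0.0555). On log2(TPM + 1) in limma these were 0.82 (adjusted p 0.0978) and -0.72 (adjusted p 0.166), and neither call passed with voom quality weights.

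LPIN1, a phosphatidate phosphatase, and GPAT4, an acyltransferase of the endoplasmic reticulum, were highest in DOCA library 6. LPIN1 had 26.03, 16.1 and 16.9 CPM in DOCA + JK07, 137 and 26.8 CPM in DOCA, and 7.56 to 18.6 CPM in control, with a log2 difference of 2.65 in DOCA against control (SE 0.52, adjusted p 0.00538 in edgeR). Without library 6 this was 1.03 (adjusted p 0.128). GPAT4 had 33.5, 29.1 and 16.8 CPM in DOCA + JK07, 100 and 24.9 CPM in DOCA, and 13.4 to 20.8 CPM in control; the log2 difference of 1.99 in DOCA against control (SE 0.44, adjusted p 0.00977 in edgeR) was 0.66 without library 6 (adjusted p 0.224).

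Between DOCA + JK07 and DOCA, 1 gene of the synthesis list rose (SCD) and 2 fell (FASN and LPIN1). Of all genes, 14.7% were called higher and 2.25% lower. The list median was 0.20 beside 0.55 for all genes. It turned to -0.10, beside -0.002 for all genes, with genes at 0 in both DOCA libraries placed at a coverage of 1. LPIN1 fell by 2.06 (SE 0.61, adjusted p 0.0477 in edgeR), and by 0.44 without library 6 (adjusted p 0.539). SCD, the desaturase that makes monounsaturated fatty acids, had 1.15 to 2.15 CPM in DOCA + JK07, was listed at 0 in both DOCA libraries and had 1.97 to 2.93 CPM in control. The CPM that a coverage of 1 stands for is not given for SCD. Whether a DOCA level like that of the other groups would be listed at 0 is thus not known. The direction of SCD is not read in this comparison either. GPAT3 and GPAT4 were the most abundant genes of the list in controls: GPAT3 averaged 24.96 ± 21.97, 10.03 ± 5.41 and 9.72 ± 4.65 TPM and GPAT4 14.4 ± 4.06, 17.9 ± 9.67 and 7.61 ± 1.64 TPM in DOCA + JK07, DOCA and control.

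**Figure D5:**
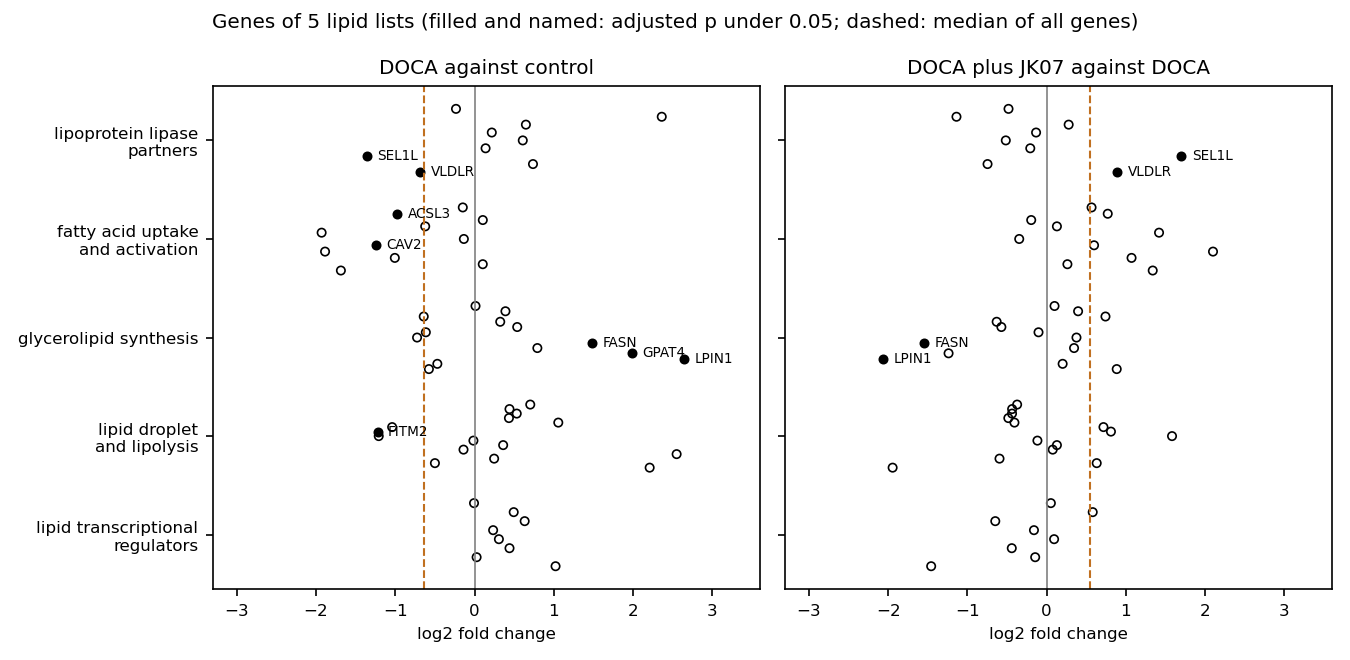
Log2 fold changes of the tested genes of 5 lipid lists for DOCA against control (left) and DOCA + JK07 against DOCA (right); filled, named points passed an adjusted p of 0.05, the dashed line is the median of all genes tested, and genes listed at 0 in both DOCA libraries are not drawn. On the left LPIN1, GPAT4 and FASN lie between 1.49 and 2.65 and SEL1L lies at -1.36; on the right SEL1L lies at 1.70 and LPIN1 at -2.06.

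Of the droplet coats, PLIN2 (ENSSSCG00000035863, chromosome 1, 203683862-203709273, plus strand), present on droplets of most cell types, had 21.0, 10.3 and 3.09 CPM in DOCA + JK07, 21.8 and 4.45 CPM in DOCA, and 2.40, 2.08, 3.93, 2.57 and 7.25 CPM in control. Its values spread widely within each group and overlapped between all groups. Between DOCA and control its log2 difference was 1.85 (SE 0.76, adjusted p 0.115 in edgeR), 2.57 with library 7 left out (adjusted p 0.0408) and 0.29 with library 6 left out (adjusted p 0.848). Its difference was -0.19 in DOCA + JK07 against DOCA (SE 0.87, adjusted p 0.928) and 1.65 in DOCA + JK07 against control (SE 0.69, unadjusted p 0.0391, adjusted p 1), or 0.88 without library 8.

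PLIN5 (ENSSSCG00000013513, chromosome 2, 74300619-74314315, plus strand), the droplet coat of oxidative tissues that ties droplets to mitochondria, had 1.95, 2.28 and 1.84 CPM in DOCA + JK07, was listed at 0 in both DOCA libraries, and had 0, 0.44, 1.11, 0.84 and 0.56 CPM in control. Every DOCA + JK07 library was above every other library, in CPM and in TPM. Between DOCA + JK07 and control the log2 difference was 1.77 (SE 1.13, adjusted p 1 in edgeR). The calls with DOCA (adjusted p 0.0356 for DOCA + JK07 against DOCA and 0.0467 for DOCA against control in edgeR) were lost with any 1 of libraries 2 to 10 left out. A coverage of 1 in PLIN5 corresponded to 1.20 and 1.57 CPM in libraries 6 and 7, above the control mean of 0.591 CPM, so a DOCA level like that of control could be listed at 0, and the direction against control cannot be read. Values under a coverage of 1 did occur, among them PLIN5 in control libraries 2 and 5 (0.803 and 0.791).

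PNPLA2 (ENSSSCG00000012841, chromosome 2, 513077-518182, plus strand), the adipose triglyceride lipase that takes the first fatty acid off stored triglyceride, had 7.30, 7.61 and 6.32 CPM in DOCA + JK07, 16.6 and 9.60 CPM in DOCA, and 6.72, 7.37, 9.12, 6.97 and 6.43 CPM in control. Both DOCA libraries were above all others, with library 7 close over control library 3. It rose by 0.84 in DOCA against control (SE 0.23, adjusted p 0.0265 in edgeR) and fell by 0.89 in DOCA + JK07 against DOCA (SE 0.25, adjusted p 0.0420).

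These PNPLA2 calls were lost without DOCA library 6 and on the TPM scale. Without library 6 the differences were 0.39 (adjusted p 0.258 in edgeR) and -0.44 (adjusted p 0.244), the first was also lost without library 5 (adjusted p 0.0526), and the second without library 5, 8, 9 or 10. In TPM, PNPLA2 had 5.63, 4.34 and 6.03 in DOCA + JK07, 5.53 and 5.75 in DOCA, and 4.29 to 5.49 in control. On log2(TPM + 1) the differences were 0.21 (adjusted p 0.543 in limma) and -0.08 (adjusted p 0.848), while upper quartile scaling of the counts gave 1.07 and -1.12.

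Among 17 further genes of droplets and lipolysis, 16 were tested. Between DOCA and control 0 rose and 2 fell, where 5.73% of all genes were called higher and 19.7% lower. The list median was 0.30 beside -0.63 for all genes (0.34 beside 0.08 with genes at 0 in both DOCA libraries placed at a coverage of 1). In DOCA + JK07 against DOCA 1 rose and 0 fell, where 14.7% of all genes were called higher and 2.25% lower. The median there was -0.24 beside 0.55 for all genes. On log2(TPM + 0.1) the list medians were -0.39 and 0.78, beside -0.98 and 1.19 for all genes. LDAH, a droplet-associated hydrolase, had 1.87 to 4.72 CPM in DOCA + JK07, was listed at 0 in both DOCA libraries and had 0.933 to 3.25 CPM in control, and was called in both comparisons. The CPM that a coverage of 1 stands for is not given for LDAH, so its direction is not read. FITM2, which helps droplets form at the endoplasmic reticulum, fell by 1.22 in DOCA against control (SE 0.35, adjusted p 0.0349 in edgeR), a call lost without any 1 of libraries 1 to 4, 7, 8 and 10. The most abundant genes of the list were MGLL, which releases the last fatty acid, with 9.99 ± 3.08, 5.56 ± 1.40 and 8.84 ± 1.46 TPM in DOCA + JK07, DOCA and control, and AUP1, a droplet protein, with 4.89 ± 1.65, 3.91 ± 1.15 and 4.09 ± 0.962 TPM.

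Of 10 transcriptional regulators of lipid genes, edgeR called 0 in DOCA against control and 0 in DOCA + JK07 against DOCA. It called 25.5% and 17% of all genes there. An unadjusted p under 0.05 was found for 1 and 2 regulators, beside 6262 and 5219 of the 17251 genes tested. DESeq2 called 2 regulators higher in the first comparison and 2 lower in the second. Of the 17251 genes, DESeq2 called 1645 higher in the first and 1137 lower in the second. PPARGC1A, a coactivator of mitochondrial genes, averaged 29.2 ± 14.1, 16.4 ± 12.8 and 24.8 ± 16.9 TPM in DOCA + JK07, DOCA and control, and PPARA, a receptor that senses fatty acids, 11.12 ± 8.55, 3.93 ± 1.17 and 4.47 ± 0.685 TPM. Across the 5 lists, edgeR, DESeq2 and voom each called 0 genes in DOCA + JK07 against control, and 2 had an unadjusted p under 0.05 in edgeR, 1 for uptake and 1 among the regulators.

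Without regard to the test, the CPM of DOCA lay wholly below control in 3 of the 8 detected members (LPL, FABP3 and GPAM) and wholly above in 1 (PNPLA2), while 27.6% and 10.2% of all genes tested did so, 37.9% in all. DOCA + JK07 lay wholly above DOCA in 5 members (LPL, FABP3, SLC27A1, GPAM and PLIN5) and below in 1 (PNPLA2), against 30.3% and 9.82% of all genes, 40.1% in all. Against control, DOCA + JK07 lay wholly above in 2 members (SLC27A1 and PLIN5), against 3.37% of all genes, and below in 0, against 2.45% of all genes, 5.81% in all. In TPM, DOCA lay wholly below control in 4 members, with SLC27A1 added, and above in 1, DOCA + JK07 lay wholly above DOCA in 5 and below in 0, and above control in 1 (PLIN5). The share of all genes was not counted in TPM, and the shares in CPM do not stand in for it. The counts in TPM are thus not read as a result about the members.

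The named genes whose profile was most like that of LPL, by Pearson correlation of log2(TPM + 0.1) over the 10 libraries among 8728 genes, were CCDC18 (0.986), JMJD1C (0.985), CCSER2 (0.978), EEA1 (0.978) and ZRANB2 (0.978). Over the 8 libraries outside DOCA their correlations with LPL were 0.940, 0.901, 0.895, 0.860 and 0.826. The genes were picked over 10 libraries that include these 8, so the latter values are not an independent check. Among members GPAM was closest to LPL, at 0.959 over all libraries and 0.652 without DOCA, while FABP3 was at 0.817 and -0.01. PNPLA2 was at -0.24 over all libraries. These points share depth and the 2 low DOCA libraries.

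Markers of other cells and of the label were read in the same libraries. The sum of 10 cardiomyocyte markers was 1478 to 4078 TPM in DOCA + JK07, 1069 and 1439 TPM in DOCA, and 1516 to 1883 TPM in control; MYBPHL was listed at 0 in all 10 libraries and 2 more (TTN and MYL7) had no identifier of that name. The sum of 9 adipocyte markers was 4.13 to 6.77, 2.29 to 5.03 and 2.74 to 4.10 TPM in DOCA + JK07, DOCA and control. ADIPOQ, LEP, TRARG1 and RETN were at 0 in all 10 libraries. GPD1, LIPE, CIDEA, CIDEC and PLIN1 were detected, with control means of 1.44, 1.03, 0.702, 0.246 and 0.0632 TPM. The 12 endothelial markers summed to 42.6 to 70.9, 17.4 to 52.4 and 36.8 to 74.5 TPM, and 10 macrophage markers to 20.2 to 31.8, 13.9 to 29.4 and 18.4 to 68.3 TPM. The 9 fibroblast markers summed to 287 to 423, 88.8 to 615 and 209 to 743 TPM in DOCA + JK07, DOCA and control.

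Transcripts of the mitochondrial genome were also lower in DOCA. The sum of its 13 protein genes was 1168 to 4041 TPM in DOCA + JK07, 99.0 and 116 TPM in DOCA, and 769 to 1635 TPM in control, and 13 of 13 fell in DOCA against control and rose in DOCA + JK07 against DOCA in edgeR. Their part, and that of the other cell types, in the differences of the members was not tested.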

How the data were processed

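The authors deposited, per the file headers, a gene abundance table per library with coverage signal, FPKM and TPM, and 1 table of whole-number estimated counts without a gene column. The submitters' processing notes name SAMtools, StringTie, edgeR and the build Sscrofa11.1; aligner, annotation release and strand setting: not given in the sources used here. TRIzol extraction and a TruSeq RNA kit are given per the labels' protocols.

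The 35670 count lines were joined to the identifiers in sorted order. The pattern of zeros was then the same in 99.998% of values, against 62.6% when shifted by 1 line, and over 13476 genes the median correlation of count and coverage profiles was 1.00, with 98.2% over 0.9. The deposited FPKM was not used in any test. The deposited counts are estimated from coverage and needed no rounding. The 2 ribosomal scaffolds took 77.6% to 90.8% of totals of 28.1 to 106 M counts (M, mega) and stayed in the library totals of the main model. Symbols came from the files, 17640 in number, and 119 more from a reference table. RefSeq spans of the 9 named members overlapped the identifiers by 92.6% to 100%. No sequences are shown.

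Genes were tested with the quasi-likelihood F test in edgeR 4.0.16 (R 4.3.3) with TMM scaling, filterByExpr and group as the only term, over 17251 genes and all 10 libraries in 1 model, with Benjamini-Hochberg adjustment per comparison and a threshold of 0.05. The common biological coefficient of variation was 0.873. SE is the size of a log2 fold change over the root of its F. CPM is the count over the TMM-scaled library total. Alternatives used limma 3.58.1, DESeq2 1.42.0, other scalings and filters, thinned counts and each library left out. Tested on simulated data for DOCA against control over 16890 genes with a dispersion of 0.1, the model called 14% of 2-fold changes and 100% of 8-fold changes, and 0.0300% of unchanged genes; the fitted coefficient of variation is far above that of the simulation, so these shares do not give the power in these data.

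The members and the 5 pathway and 6 marker lists were chosen with earlier results of these data known. Named pathway genes were, per list and comparison, those called (at most 4 by adjusted p) and the 2 with the highest control TPM; genes like LPL were the 5 with the highest correlation among named genes with a control mean of at least 1 TPM.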

Additional observations from a re-analysis of the deposited data

Results flagged for a closer look

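In 4 of the 37 control groups of values examined, the highest of the 5 control libraries stood apart from the other 4 by a gap that is large for the group's range (Dixon's criterion at 95%); chance gives about 1 in 20 such groups. The members and the CD36-interval locus were examined in both CPM and TPM, so the 37 groups are not independent. PLIN2 had 2.85 TPM in control library 5, against 1.40 TPM in the next highest control library. Its CPM there (7.25, against 3.93 in control library 3) was not flagged. DBI had 4.66 CPM in control library 2, against 2.16 CPM in the next. PPARGC1A had 136 CPM in control library 1, against 53.6 CPM in the next. VLDLR had 36.3 CPM in control library 3, against 28.9 CPM in the next. Groups of 3 and of 2 libraries could not be examined in this way.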

How the results depend on the processing

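The calls of LPL and GPAM in both comparisons with DOCA held with each library left out and in 9 of 10 other settings, failing with voom quality weights. Counts moved more. In DOCA against control, genes called higher numbered 988, and 1523 with upper quartile scaling, 1645 with DESeq2, 258 and 221 with limma on log2(TPM + 1) and log2(TPM + 0.1), and 67 with voom. Genes called lower numbered 3403, and 5681 on log2(TPM + 0.1) and 94 with voom. Members called higher were 1, and 0 on either TPM scale and with voom; members called lower were 3, and 0 with voom. In DOCA + JK07 against DOCA, genes called higher numbered 2542, and 3908 with DESeq2, 5536 and 6031 on the TPM scales and 1 with voom. Genes called lower numbered 388, and 752 with upper quartile scaling, 1137 with DESeq2, 90 and 53 on the TPM scales, 4 with voom and 112 with the compared groups alone. Members called higher were 3, and 5 on both TPM scales and 0 with voom; members called lower were 1, and 0 on both TPM scales, with voom and with the compared groups alone. In DOCA + JK07 against control, DESeq2 called 51 genes higher and 64 lower and voom 8 and 0, against 0 in edgeR. The cause of these shifts was not tested.

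With 1 library left out, DOCA against control gave 498 to 1354 genes higher and 2549 to 4083 lower, with 0 to 3 members higher and 2 to 3 lower. Without library 6 these were 498 and 4083 genes with 0 and 3 members, and without library 7 they were 1354 and 3932 genes with 3 and 2 members. DOCA + JK07 against DOCA gave 2082 to 3849 genes higher and 195 to 867 lower, with 2 to 3 members higher and 0 to 2 lower. DOCA + JK07 against control gave 0 throughout.

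The direction of differences that had passed no threshold turned in some settings. For DOCA against control, SLC27A1 became 0.13 with upper quartile scaling, 0.021 with voom and 0.035 with thinned counts and ran from -0.50 to 0.20 with a library left out (positive without 2, 3 or 7), and DGAT1 ran from -0.044 (without 6) to 1.65. For DOCA + JK07 against DOCA, DGAT1 became 0.14 and 0.22 on the TPM scales and ran from -1.32 to 0.38 (positive without 6), and PLIN2 became 0.46 and 0.56 and ran from -1.01 to 1.37 (positive without 6 or 10). For DOCA + JK07 against control, FABP3 became 0.16 and 0.17 on the TPM scales and 0.11 with thinned counts and ran from -0.26 to 0.23 (positive without 1, 3, 4 or 8), GPAM ran from -0.40 (without 8) to 0.56, and PNPLA2 became 0.14 and 0.16 on the TPM scales and ran from -0.10 to 0.042 (positive without 3 or 10). Raising DOCA values to a coverage of 1, a setting chosen after seeing the data, put PLIN5 at 1.23 in DOCA against control, so its direction there cannot be read.

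No paired analysis was possible because the labels number the libraries 1 to 10 with no number shared between groups. Ratios of PLIN2 to PLIN5 and of DGAT1 to DGAT2 had been planned and were not formed, since DGAT2 was listed at 0 in all libraries and PLIN5 in libraries 1, 6 and 7. Over the 10 libraries together, 3.96% of detected values lay under a coverage of 1. This share was not counted for the 2 DOCA libraries of low depth alone. In DOCA library 7, LPL (0.294) and the CD36-interval locus (0.550) lay under it. A member listed at 0 in the DOCA libraries has no measured level.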
